A study of Mus musculus with 24 samples.

Results

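The genes that make, sense and move cholesterol were followed in the open chromatin of mouse striatal neurons. There were 29 such genes, and their members in the data were the peaks that carry one of their symbols, 162 of 147020 peaks in all. A peak is a region where the transposase Tn5 cut the DNA often, and its symbol names the gene whose annotated start is closest, whether or not the region acts on that gene. Hsd17b7, a sterol dehydrogenase, had 0 peaks of its own, so the 162 peaks belonged to 28 genes, with 1 peak at Hmgcs1, Mvd, Idi1, Tm7sf2 and Ebp and up to 15 at Msmo1.

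The study measured accessibility by ATAC-seq in 24 C57BL/6 mice of 12 months, 6 per genotype with 3 females and 3 males each. Q140_Msh3KO animals were heterozygous for the Q140 knock-in of the huntingtin gene Htt, which lengthens its CAG repeat, and lacked both alleles of the mismatch repair gene Msh3. Q140 animals carried the heterozygous knock-in with Msh3 intact, Msh3KO animals lacked Msh3 and had no knock-in, and WT animals were wild type. Nuclei positive for NeuN, a protein of most neuronal nuclei, were sorted from frozen striatum, so each library averages all neuron types of that tissue, and fewer open cells and less opening per cell cannot be told apart. The labels do not say which part of Msh3 is deleted, so its peaks were not used to check the genotypes.

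As background, cells build cholesterol from acetyl-CoA through mevalonate, squalene and lanosterol. The factor SREBP, made by Srebf1 and Srebf2, is carried by the escort protein Scap to be cut and released when sterols are low, and the Insig proteins hold it back when sterols are high. The adult brain makes its own cholesterol because plasma lipoproteins do not cross into it, astrocytes supply it on apolipoprotein E particles, cells export it through transporters of the ABC family, and the neuronal hydroxylase Cyp46a1 turns the surplus into an oxysterol that can leave the brain.

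Libraries held 4372251 to 11736557 counts in peaks, and a member peak held a median of 31 counts per library, against 28 over all tested peaks. Of the member peaks, 161 passed the filter on low counts, and the one that did not, a peak of Nsdhl, lies at chrX:72937631-72937840. A pair of libraries stood apart. The library of Q140 female 2 had 1.47% of its counts on X, where the remaining female libraries had 1.72% to 1.94% and male ones 1.49% to 1.59%, and that of Q140_Msh3KO male 1 had 12.7% of its counts in its 10 strongest peaks, against 2.52% to 6.82% elsewhere. The sort was checked on marker genes. Within 1 kb of starts, the summed signal of neuronal markers averaged 34.4 CPM, counts scaled to a fixed library total, per gene with a peak, against 9.44 for astrocyte, 8.40 for oligodendrocyte, 4.77 for endothelial and 2.91 CPM for microglial markers. The sums took 10 peaks at 5 neuronal, 4 at 3 astrocyte, 6 at 5 oligodendrocyte, 4 at 2 endothelial and 2 at 2 microglial genes. The number of peaks per gene thus differed between these lists as well. No peak with the gene's own symbol lay within 1 kb of the starts of the astrocyte genes Gfap, Aqp4, Slc1a3 and Gja1. The same held for the microglial genes Cx3cr1, P2ry12 and Csf1r, the endothelial genes Pecam1 and Tek and the oligodendrocyte gene Mobp. Peaks over these starts that carry a neighbour's symbol were not searched for.

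The DNA under the start peaks is shown for 5 genes: the synthase gene Hmgcs1, the only member with a window at hand that held the sterol response element searched for, the regulators Srebf2 and Insig1, the neuronal hydroxylase Cyp46a1, and the transporter Abca1. The Abca1 start was the only member peak within 1 kb of a start that passed a test between genotypes, and it passed only under some settings. Each run is the RefSeq window of build GRCm38.p6 from 250 bases before to 50 after the start, read in the direction of the gene, and all 300 bases lie inside the peak. Capitals mark motif matches on either strand.
Hmgcs1, chr13:119690101-119690400, plus strand: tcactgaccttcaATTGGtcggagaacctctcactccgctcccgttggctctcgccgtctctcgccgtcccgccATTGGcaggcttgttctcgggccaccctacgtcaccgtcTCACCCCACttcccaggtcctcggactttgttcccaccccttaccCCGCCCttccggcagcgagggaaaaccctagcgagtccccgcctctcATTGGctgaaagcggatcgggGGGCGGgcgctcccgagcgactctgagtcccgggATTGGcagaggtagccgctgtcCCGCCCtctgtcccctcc
Srebf2, chr15:82147019-82147318, plus strand: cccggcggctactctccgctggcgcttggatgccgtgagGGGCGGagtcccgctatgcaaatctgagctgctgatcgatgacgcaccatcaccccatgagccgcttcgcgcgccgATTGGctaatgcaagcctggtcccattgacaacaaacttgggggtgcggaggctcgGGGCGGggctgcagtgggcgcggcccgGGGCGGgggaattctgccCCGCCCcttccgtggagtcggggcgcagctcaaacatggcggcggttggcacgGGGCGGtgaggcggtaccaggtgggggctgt
Insig1, chr5:28071162-28071461, plus strand: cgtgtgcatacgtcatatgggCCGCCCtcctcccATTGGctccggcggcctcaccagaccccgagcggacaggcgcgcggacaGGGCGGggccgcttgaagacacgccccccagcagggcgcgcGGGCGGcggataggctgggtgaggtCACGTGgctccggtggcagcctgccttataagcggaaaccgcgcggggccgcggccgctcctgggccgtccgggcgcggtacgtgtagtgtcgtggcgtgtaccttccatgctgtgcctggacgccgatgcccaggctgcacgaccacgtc
Cyp46a1, chr12:108334066-108334365, plus strand: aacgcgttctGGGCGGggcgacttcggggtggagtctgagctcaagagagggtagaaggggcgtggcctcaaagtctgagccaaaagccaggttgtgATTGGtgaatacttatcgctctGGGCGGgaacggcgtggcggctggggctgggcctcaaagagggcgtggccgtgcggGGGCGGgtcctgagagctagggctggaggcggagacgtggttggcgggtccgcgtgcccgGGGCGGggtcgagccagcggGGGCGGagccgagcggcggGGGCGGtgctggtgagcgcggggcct
Abca1, chr4:53159846-53160145, minus strand: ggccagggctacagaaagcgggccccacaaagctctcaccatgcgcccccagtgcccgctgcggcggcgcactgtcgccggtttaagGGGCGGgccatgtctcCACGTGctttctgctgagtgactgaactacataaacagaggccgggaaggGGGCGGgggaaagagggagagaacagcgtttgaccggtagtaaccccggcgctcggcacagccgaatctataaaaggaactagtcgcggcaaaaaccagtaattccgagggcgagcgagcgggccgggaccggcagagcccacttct
The capitals are the sterol element core TCACNCCAC (in Hmgcs1 as TCACCCCAC), the CCAAT box CCAAT or its reverse ATTGG, the GC box GGGCGG or its reverse CCGCCC, and the E-box CACGTG. No 2 of the printed matches overlap. RefSeq windows were at hand for 25 of the 29 genes, 36 windows in all. The sterol element core was in 1 of the 36, against 1.24% of 32851 windows of all genes. The CCAAT box was in 20 of the 36 windows (55.6%), against 37.4% of all. The GC box was in 25 (69.4%), against 35.7%, and the E-box in 7 (19.4%), against 7.15%. The exact element of the oxysterol receptors, AGGTCA repeated in 1 direction with any 4 bases between, was in 0 of the 36, against 0.0152% of all. Only 5 of the 32851 windows held this exact form, so 0 of 36 could hardly have come out otherwise. Inexact forms of it, at Abca1 or elsewhere, were not searched for. These are matches of letters in a short window and say nothing of what binds there.

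Of the 28 genes, 26 had a peak of their own within 1 kb of the start. In WT animals, its mean level per length was highest at Msmo1, the methylsterol oxidase, at 48.3 ± 7.78 CPM per kb of peak (SD, n = 6, as for all means below), followed by Hmgcs1, HMG-CoA synthase, at 38.2 ± 4.53, Idi1, the isomerase of isopentenyl diphosphate, at 37.7 ± 5.14, and Srebf2 at 36.4 ± 5.30 CPM per kb. The last 3 lay within 1 SD of each other. Levels were lowest at Abca1, the cholesterol efflux transporter, with 7.56 ± 1.37, at Nr1h3, the oxysterol receptor LXR alpha, with 8.84 ± 1.00, and at Apoe, the brain's main lipid carrier, with 11.3 ± 1.78 CPM per kb. Cyp46a1 stood at 28.9 ± 2.65 CPM per kb, between Lss, lanosterol synthase, at 28.1 ± 3.17 and Fdps, farnesyl diphosphate synthase, at 30.9 ± 5.32, and did not differ from either beyond their spread. The remaining starts ran between 16.7 CPM per kb at Nr1h2, the second oxysterol receptor, and 33.9 CPM per kb at Acat2, which makes acetoacetyl-CoA.

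The exceptions were Mvk, mevalonate kinase, and Dhcr7, the reductase that forms cholesterol in the last step. Their nearest peaks with their own symbol lay 13.3 and 2.30 kb away. The starts of Mvk, Dhcr7 and Hsd17b7 lay inside peaks that carry the symbols of their neighbours Mmab, Nadsyn1 and 3110045C21Rik. Those shared start peaks differed in Q140 against WT animals by a log2 fold change of 0.11 ± 0.11, 0.16 ± 0.11 and 0.02 ± 0.12 (SE), and none passed the test (adjusted p = 0.67, 0.431 and 0.956, edgeR). They serve 2 genes each and are not counted among the members.

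**Figure D1:**
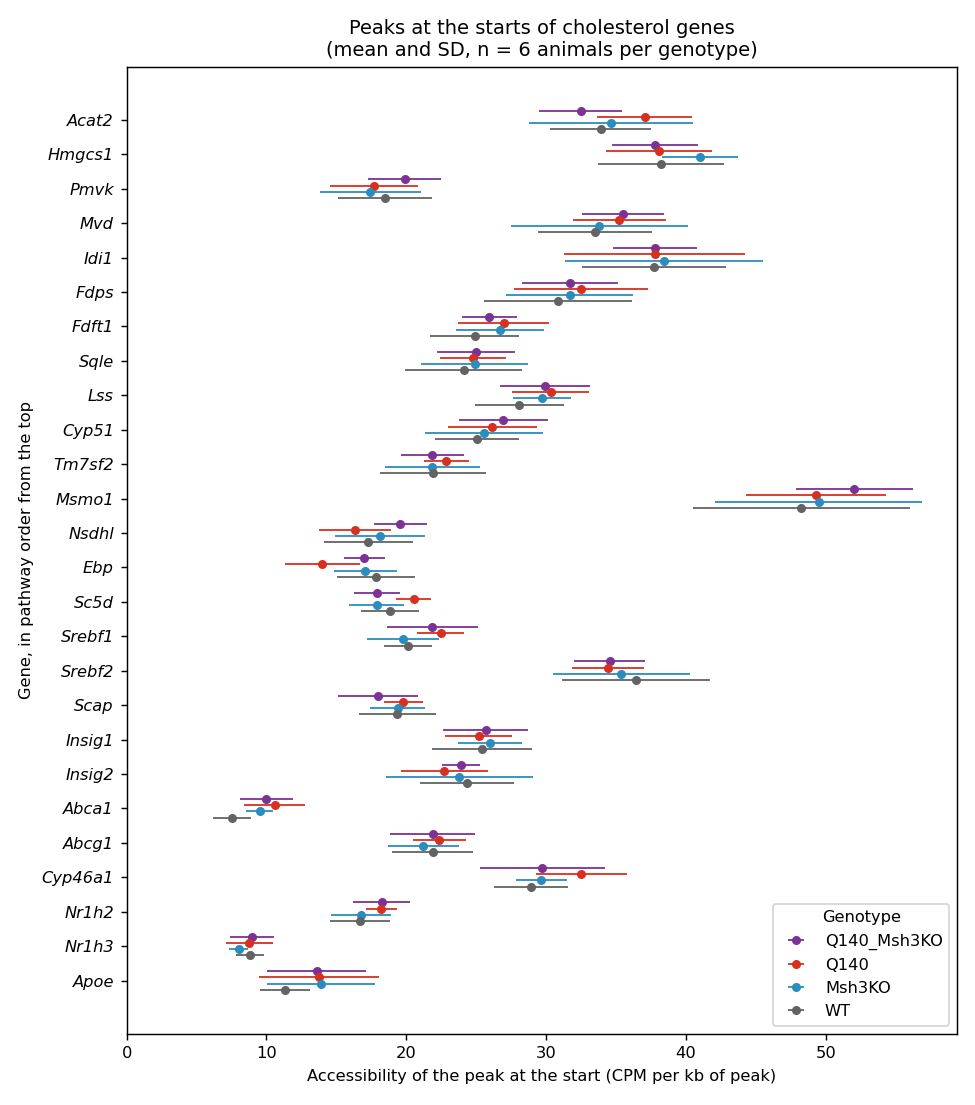
Mean accessibility of the start peak of 26 cholesterol genes in CPM per kb of peak, with the SD over 6 animals, for Q140_Msh3KO, Q140, Msh3KO and WT from top to bottom within each gene. Levels range from 7.56 at Abca1 to 48.3 CPM per kb at Msmo1 in WT, and at Abca1 the WT mean is the lowest of the 4.

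The comparison of Q140 with WT asks what the expanded allele does with Msh3 intact. Counts were tested with edgeR's quasi-likelihood test on all 146155 peaks that passed the filter, with Benjamini-Hochberg adjustment over them, and a peak passed at an adjusted p under 0.05. Of the 161 member peaks, 3 were higher and 10 lower in Q140 animals, and 148 did not pass. This is 8.07% of them, against a background of 10.3% of all tested peaks (4.2% higher and 6.11% lower), so the share of members that passed was no higher than the background. The median log2 fold change was -0.00038 over the members and -0.0073 over all peaks. At an unadjusted p under 0.05 there were 32 member peaks, while 21.3% of all tested peaks were under it.

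By role, the 10 lower peaks lay in 3 groups, whose shares that passed in either direction were near the background of 10.3% of all tested peaks. The shares were 10% in the mevalonate and isoprenoid steps, 11.4% from lanosterol to cholesterol and 9.62% in sensors and regulators. For efflux, transport and turnover the share was 3.57%. Groups of 6 or 11 peaks are too small to set 0 apart from that background. The genes of the mevalonate and isoprenoid steps had 0 higher and 2 lower of 20 tested peaks, 1 each at Acat2 and Mvk, with a median log2 fold change of 0.07. The genes of squalene and lanosterol, Fdft1, Sqle and Lss, had 0 of 11 (median 0.11). The genes from lanosterol to cholesterol had 2 higher and 3 lower of 44 (median -0.10), at Cyp51, Msmo1, Sc5d and Dhcr7. The sensors and regulators had 0 higher and 5 lower of 52 (median -0.08), of which 2 belonged to Srebf2 and 1 each to Srebf1, Scap and Insig2, while none of the 11 peaks of Insig1 passed. The oxysterol receptors had 0 of 6 (median 0.05), and the genes of efflux, transport and turnover 1 higher and 0 lower of 28 (median 0.09), the start peak of Abca1. A further 35 genes of sterol and fatty acid metabolism, lipoprotein uptake and sterol transport gave 7 higher and 11 lower of 239 tested peaks at 34 genes (7.53%, median -0.0056).

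Beside the lower member peaks, the 8 marker genes of striatal projection neurons, the main neuron type of this tissue, gave 2 higher and 13 lower of 114 tested peaks in the same comparison (13.2%), with a median log2 fold change of -0.145, negative at 89 peaks and positive at 25. All 8 had a start peak, and the summed level of these 11 start peaks ran from 206 to 293.8 CPM with a median of 237.4 in Q140 animals and from 241.8 to 336.8 CPM with a median of 254.8 in WT animals. The ranges overlap, and none of the 11 passed. The 5 general neuronal markers gave 9 higher and 5 lower of 182 tested peaks (7.69%, median 0.04). The part of the neuron types in the member peaks was not tested.

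**Figure D2:**
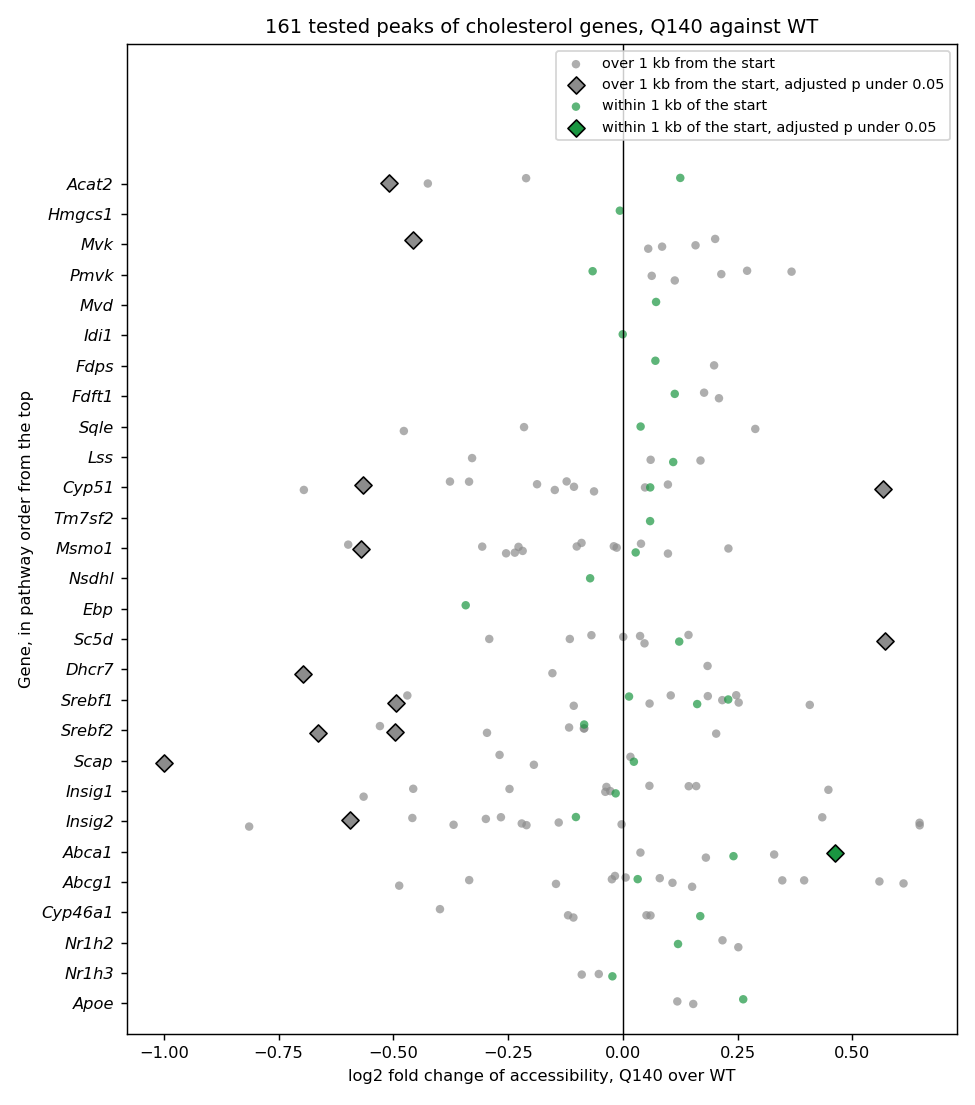
The log2 fold change of accessibility in Q140 over WT at each of the 161 tested cholesterol gene peaks, with green points within 1 kb of the start and diamonds where the adjusted p is under 0.05. Of the 13 diamonds, 10 lie left of 0 and 12 are more than 1 kb from the start.

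The differences lay away from the starts. Of the 29 tested member peaks within 1 kb of a start, 1 passed, against a background of 3.33% of all such peaks. Of the 132 farther away, 12 passed (9.09%), against 11.2% of all such peaks. The same contrast of near and far peaks thus held in all peaks. Of the 13 peaks that passed, 6 lay inside the gene whose symbol they carry, 5 inside another gene and 2 between genes, while of all 162 member peaks 70, 44 and 48 did.

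The peak of smallest p belonged to Scap, the sterol-sensing escort of SREBP. It lies in an intron of Scap, 8.80 kb past the start, at chr9:110341835-110342485. Accessibility there ran from 4.96 to 7.04 CPM with a median of 6.70 in Q140 animals, against 10.1 to 14.6 CPM with a median of 13.1 in WT animals, the log2 fold change being -0.999 ± 0.15 (SE) with an adjusted p of 5.15e-06. Every Q140 animal lay below every WT animal. The same peak held 7.30 to 10.5 CPM with a median of 8.83 in Q140_Msh3KO animals and 8.77 to 16.7 CPM with a median of 12.9 in Msh3KO animals, ranges that overlap. At the start of Scap, Q140 animals averaged 16.7 ± 1.19 CPM and WT animals 16.3 ± 2.32 CPM (log2 fold change 0.02 ± 0.12, adjusted p = 0.952, edgeR).

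Srebf2, the main driver of cholesterol synthesis genes, had 2 lower intronic peaks, while its start did not pass. The intron peak 13.7 kb past the start, at chr15:82160763-82161253, ran from 3.78 to 5.40 CPM with a median of 4.46 in Q140 animals and from 5.82 to 9.23 CPM with a median of 6.79 in WT animals, without overlap. Its log2 fold change was -0.66 ± 0.15 (adjusted p = 0.00148, edgeR). In Q140_Msh3KO animals it held 4.69 to 7.13 CPM with a median of 5.36, and in Msh3KO animals 6.09 to 7.75 CPM with a median of 6.78. The second peak, 19.3 kb past the start at chr15:82166332-82166808, averaged 5.99 ± 1.5 CPM in Q140 and 8.56 ± 1.12 CPM in WT animals (-0.50 ± 0.16, adjusted p = 0.0394, edgeR), and with DESeq2 its adjusted p was 0.0593. The start peak shown above ran from 40.5 to 48.0 CPM with a median of 44.0 in Q140 animals and from 36.6 to 54.4 CPM with a median of 47.3 in WT animals. These ranges overlap throughout, and the log2 fold change of -0.08 ± 0.11 had a 95% interval of -0.30 to 0.13.

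Dhcr7 had a lower peak in its intron 2.30 kb past the start, at chr7:143825284-143825654. Q140 animals held 3.42 to 5.40 CPM with a median of 4.72, and WT animals 4.98 to 9.40 CPM with a median of 6.98 (log2 fold change -0.70 ± 0.17, adjusted p = 0.00415, edgeR). The groups overlap between 4.98 and 5.40 CPM. Q140_Msh3KO animals held 5.14 to 8.68 CPM with a median of 6.73, and Msh3KO animals 4.43 to 9.79 CPM with a median of 7.77. The shared start peak of Dhcr7 and Nadsyn1 averaged 29.5 ± 3.41 CPM in Q140 and 26.3 ± 3.14 CPM in WT animals.

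Cyp51, the demethylase that takes lanosterol onward, carried peaks of both directions, both in introns of its neighbour Akap9, a scaffold of the Golgi and centrosome. The one 47.4 kb past the start, at chr5:4056980-4057531, ran from 4.60 to 7.45 CPM with a median of 6.23 in Q140 animals and from 7.25 to 10.3 CPM with a median of 9.65 in WT animals, and only a narrow stretch overlaps (-0.57 ± 0.14, adjusted p = 0.00436, edgeR). Q140_Msh3KO animals held 7.30 to 9.80 CPM with a median of 8.52, and Msh3KO animals 6.20 to 10.4 CPM with a median of 7.85. The one 31.9 kb past the start, at chr5:4072494-4073010, was higher, with 4.68 ± 0.80 CPM in Q140 and 3.16 ± 0.62 CPM in WT animals (0.57 ± 0.18, adjusted p = 0.0335, edgeR). At the start of Cyp51 the log2 fold change was 0.06 ± 0.11.

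Mvk, the kinase that phosphorylates mevalonate, had a lower peak in its intron 13.3 kb past the start, at chr5:114457197-114457896. Q140 animals held 7.99 to 11.9 CPM with a median of 9.56 and WT animals 10.4 to 16.9 CPM with a median of 13.7 (-0.46 ± 0.12, adjusted p = 0.00907, edgeR). The ranges overlap between 10.4 and 11.9 CPM. Q140_Msh3KO animals held 9.62 to 13.03 CPM with a median of 10.8, and Msh3KO animals 9.96 to 14.6 CPM with a median of 12.6. The other 4 peaks of Mvk had positive log2 fold changes up to 0.20, and none passed.

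Msmo1 had a lower peak 57.9 kb before its start, in an intron of Klhl2, at chr8:64791049-64791849. It ran from 7.21 to 8.57 CPM with a median of 7.79 in Q140 animals and from 9.09 to 16.6 CPM with a median of 11.04 in WT animals, without overlap (-0.57 ± 0.16, adjusted p = 0.0115, edgeR). Q140_Msh3KO animals held 9.28 to 13.3 CPM with a median of 10.2, and Msh3KO animals 7.22 to 15.9 CPM with a median of 10.6. At the start of Msmo1, the strongest of the members per kb of peak, Q140 animals averaged 40.6 ± 4.12 CPM and WT animals 39.7 ± 6.40 CPM (0.03 ± 0.11).

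**Figure D3:**
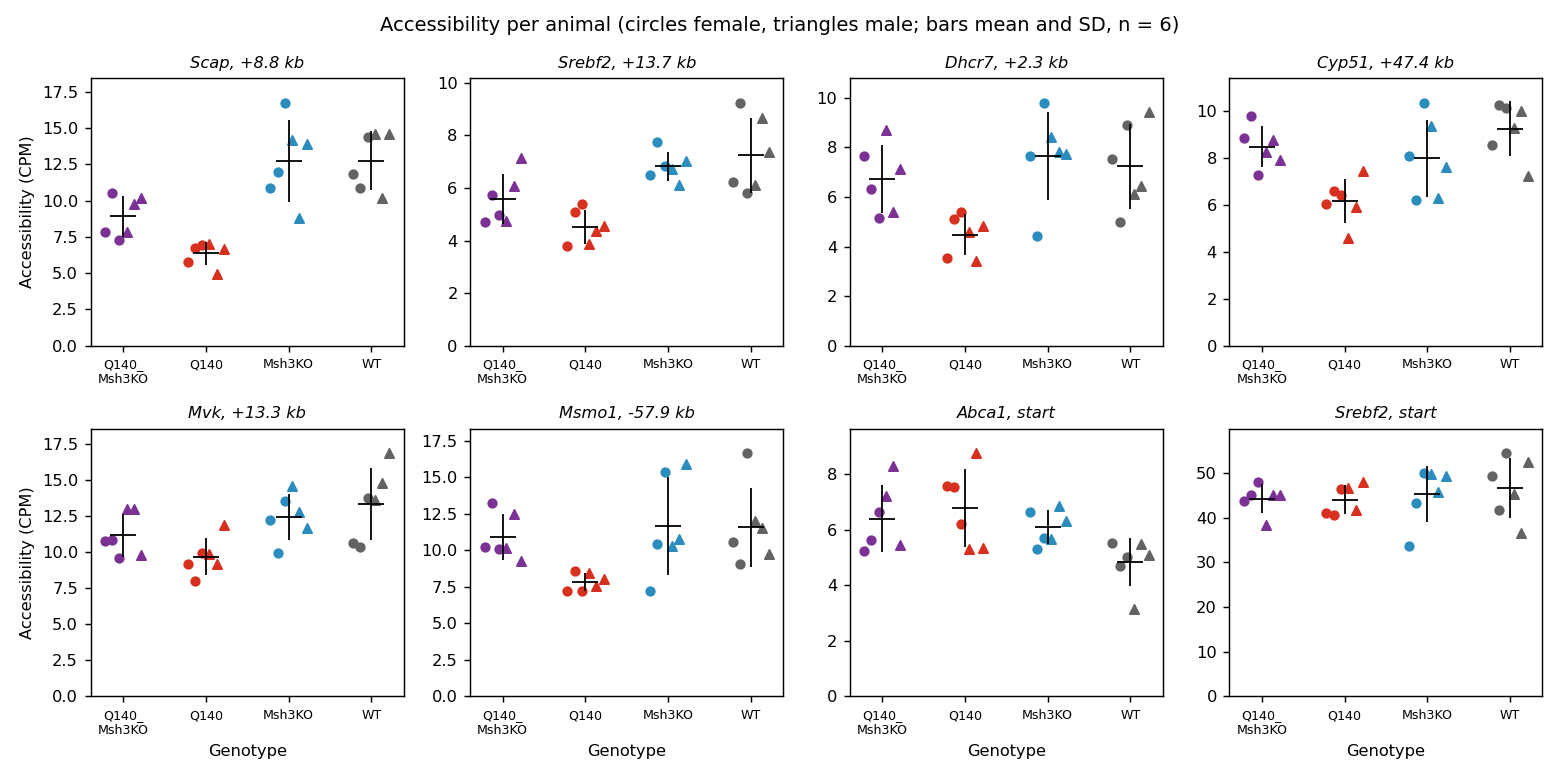
Accessibility in CPM of 8 cholesterol gene peaks in each animal, female animals as circles and male animals as triangles, with the mean and SD over 6 animals, in the order Q140_Msh3KO, Q140, Msh3KO and WT. At the Scap intron peak all 6 Q140 animals lie under 7.04 CPM or at it and all 6 WT animals over 10.1 CPM or at it, whereas at the start of Srebf2 the genotypes overlap.

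Of the other peaks that passed, 3 were lower. Acat2 had one 7.13 kb before its start in an exon of Wtap, at chr17:12967436-12968278, with 9.36 ± 2.54 CPM in Q140 and 13.2 ± 1.82 CPM in WT animals (-0.51 ± 0.14, adjusted p = 0.0142, edgeR). Srebf1, whose product drives fatty acid more than sterol synthesis in liver, had one 26.2 kb before its start in an intron of Tom1l2, at chr11:60248296-60249218, with 16.6 ± 3.33 CPM in Q140 and 23.4 ± 4.05 CPM in WT animals (-0.49 ± 0.14, adjusted p = 0.0174, edgeR). Insig2, which retains Scap in the endoplasmic reticulum, had one 80.0 kb past its start between genes, at chr1:121247504-121247929, with 3.41 ± 1.13 CPM in Q140 and 5.07 ± 0.70 CPM in WT animals (-0.59 ± 0.19, adjusted p = 0.0338, edgeR). Insig2 also held the widest spread of fold changes of the 28 genes, -0.81 to 0.65 over its 14 peaks, and no other peak of it passed.

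Higher peaks were 3, at Cyp51 as given, Sc5d and Abca1. Sc5d, a sterol desaturase, had one 60.4 kb before its start between genes, at chr9:42324508-42324938, with 3.93 ± 0.68 CPM in Q140 and 2.65 ± 0.69 CPM in WT animals (0.57 ± 0.18, adjusted p = 0.0321, edgeR). The start peak of Abca1, at chr4:53159612-53160250, ran from 5.31 to 8.74 CPM with a median of 6.85 in Q140 animals and from 3.16 to 5.52 CPM with a median of 5.06 in WT animals (0.46 ± 0.15, adjusted p = 0.0428, edgeR), and the ranges overlap between 5.31 and 5.52 CPM. Q140_Msh3KO animals held 5.21 to 8.27 CPM with a median of 6.13, and Msh3KO animals 5.31 to 6.84 CPM with a median of 6.00. Against WT, their log2 fold changes were 0.38 ± 0.16 and 0.32 ± 0.16, and neither passed. The WT mean was thus the lowest of the 4 genotypes, also beside Msh3KO animals without the knock-in. Without Q140 female 2 all of these 3 higher peaks missed the threshold, with adjusted p of 0.0862 at Cyp51, 0.0541 at Sc5d and 0.128 at Abca1 (edgeR). Abca1 passed under 4 of 9 other settings of the test, with adjusted p from 0.027 to 0.128. Beside Abca1, a gene that astrocytes use too, the start peaks of 3 of 7 astrocyte markers were summed. They held 25.0 to 36.9 CPM with a median of 32.1 in Q140 animals and 19.7 to 35.2 CPM with a median of 24.0 in WT animals. Their medians were 25.4 CPM in Q140_Msh3KO and 28.3 CPM in Msh3KO animals. None of these 4 start peaks passed. All tested peaks of the 7 markers gave 3 higher and 3 lower of 47 (12.8%, against 10.3% of all tested peaks). The part of astrocytes in the Abca1 result was not tested.

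Apart from that of Abca1, no start peak of the members passed. Over the 26 genes with a start peak, the log2 fold change in Q140 against WT ran from -0.34 to 0.46 with a median of 0.05 and was above 0 at 17 genes. The median over all tested peaks within 1 kb of a start was 0.055, so this small shift was not particular to the members. At 23 genes the 95% interval lay within 0.5 of 0. That bound is about as large as changes at peaks that passed, such as -0.46 at Mvk and -0.49 at Srebf1. The start of Insig1, which curbs SREBP when sterols are ample, ran from 37.1 to 49.0 CPM with a median of 41.3 in Q140 animals and from 33.9 to 49.1 CPM with a median of 43.0 in WT animals, overlapping throughout (-0.02 ± 0.11, interval -0.23 to 0.20). The start of Cyp46a1 ran from 36.1 to 48.8 CPM with a median of 42.2 in Q140 animals and from 33.2 to 43.3 CPM with a median of 38.2 in WT animals, which overlap as well (0.17 ± 0.10, interval -0.04 to 0.38, adjusted p = 0.383, edgeR). Hmgcs1, whose window held the sterol element match, had -0.0067 ± 0.10 and Idi1 -0.00038 ± 0.12.

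Ebp, a sterol isomerase on X, had the lowest start value, with 15.4 ± 2.95 CPM in Q140 and 19.6 ± 3.07 CPM in WT animals (-0.34 ± 0.12). It did not pass (adjusted p = 0.0705, edgeR), but did under 3 of 9 other settings: no filter on low counts (adjusted p = 0.0357), the replicate block (0.0387) and the promoter share of counts as a covariate (0.0129, all edgeR). Its log2 fold change was -0.49 ± 0.18 in females and -0.18 ± 0.18 in males. Without Q140 female 2, the female library with the low share of counts on X, it was -0.34 (adjusted p = 0.0943, edgeR). The start of Apoe held 4.57 ± 1.42 CPM in Q140 and 3.76 ± 0.59 CPM in WT animals, with a wide interval of -0.13 to 0.65 for its log2 fold change of 0.26. Those of Abcg1, a second efflux transporter, Nr1h2 and Nr1h3 had log2 fold changes of 0.03, 0.12 and -0.02. The 11 peaks of Insig1 lie within 20 Mb of Htt, none passed there, and no member peak lies within 20 Mb of Msh3.

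Of the 3 Q140 females, Q140 female 2 had a share of counts on X below that of every male, so its sex label is in doubt, and the values by sex below include it as labelled. The 13 peaks were picked on both sexes together, and each had the same sign in females and in males. A test of whether the Q140 effect differed between the sexes passed at 0 of the 161 member peaks (background 0% of all peaks, edgeR). At an unadjusted p under 0.05 there were 4 member peaks, against 4806 of all 146155 tested peaks (edgeR). With DESeq2, 0 member peaks passed. The Scap intron peak had -0.93 ± 0.21 in females and -1.07 ± 0.22 in males, and the Abca1 start 0.47 ± 0.22 and 0.46 ± 0.23. The smallest p of that test was at a peak of Sqle, the squalene epoxidase, 21.9 kb past its start in an intron of Washc5. The log2 fold changes there were 0.30 ± 0.46 in females and -1.12 ± 0.43 in males, a difference of 1.42 ± 0.63 (adjusted p = 1, edgeR). This weak peak held 3.29 CPM in WT male 2, but 1.18 and 1.70 CPM in the other WT males, so the male value leans on 1 animal. Between females and males over all genotypes, 0 member peaks passed (background 0.169%), and 0 passed with DESeq2. At an unadjusted p under 0.05 there were 4, against 6446 of all 146155 tested peaks (edgeR). The smallest p there was at a Cyp51 peak 10.5 kb before the start, 0.47 ± 0.16 higher on the log2 scale in females without passing (adjusted p = 0.598, edgeR).

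Loss of Msh3 alone, Msh3KO against WT, gave 0 member peaks that passed (background 0.013%), and 0 passed with DESeq2. At an unadjusted p under 0.05 there were 3, against 4875 of all 146155 tested peaks (edgeR). The smallest p was at a Srebf1 peak 14.9 kb before the start in an intron of Tom1l2, which held 4.43 to 8.38 CPM with a median of 6.23 in Msh3KO animals and 3.52 to 6.73 CPM with a median of 4.45 in WT animals (0.51 ± 0.18, adjusted p = 1, edgeR). The ranges overlap. The median over the members was -0.01, and over the 28 nearest peaks of the genes the log2 fold changes ran from -0.15 to 0.32.

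Loss of Msh3 on the Q140 background, Q140_Msh3KO against Q140, also gave 0 member peaks that passed (background 0.529%). At an unadjusted p under 0.05 there were 18, against 13892 of all 146155 tested peaks (edgeR). With DESeq2, 0 passed, but it gave an adjusted p at only 104253 peaks, and a peak without one could not pass. The smallest p was at the Dhcr7 intron peak, 6.72 ± 1.36 CPM in Q140_Msh3KO and 4.48 ± 0.82 CPM in Q140 animals (0.56 ± 0.17, adjusted p = 0.141, edgeR). At the Scap intron peak every Q140_Msh3KO animal lay above every Q140 animal, and the log2 fold change of 0.48 ± 0.15 did not pass (adjusted p = 0.155, edgeR). Values at the other lower peaks of small p were 0.29 ± 0.15 at the Srebf2 peak 13.7 kb away, 0.44 ± 0.14 at the Cyp51 peak 47.4 kb away, 0.19 ± 0.12 at Mvk and 0.48 ± 0.16 at Msmo1, none past the threshold. This comparison shares the Q140 libraries with the one of Q140 and WT by which these peaks were picked out, so no count of directions is given.

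The expanded allele without Msh3, Q140_Msh3KO against Msh3KO, shares no library with Q140 against WT. It gave 0 member peaks that passed (background 0.116%). At an unadjusted p under 0.05 there were 9, against 11220 of all 146155 tested peaks (edgeR). With DESeq2, 0 passed, with an adjusted p at only 109954 peaks. The smallest p was at the Scap intron peak again, 8.91 ± 1.40 CPM in Q140_Msh3KO and 12.7 ± 2.81 CPM in Msh3KO animals (-0.52 ± 0.14, adjusted p = 0.146, edgeR). Of the 13 peaks that passed in Q140 against WT, 11 had the same sign here, as did 90.6% of all 15066 such peaks. The Cyp51 peak 47.4 kb away had the other sign at 0.06 ± 0.14, and the Srebf2 peak 19.3 kb away had a value near 0 with an interval of -0.33 to 0.33. Insig2 had -0.48 ± 0.19 and Srebf1 -0.34 ± 0.14. The Abca1 start had 0.06 ± 0.15.

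**Figure D4:**
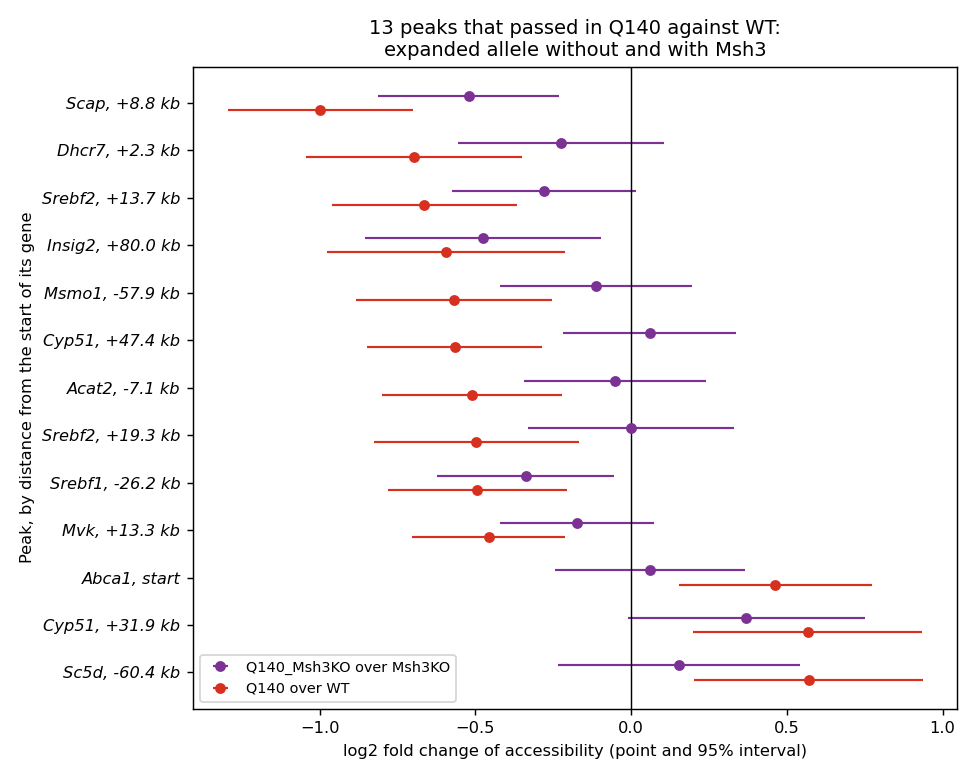
The log2 fold change and its 95% interval for the 13 peaks that passed in Q140 against WT, in Q140_Msh3KO over Msh3KO (upper point) and in Q140 over WT (lower point). The Q140 over WT points were picked for passing, and the Scap intron peak has -0.52 without Msh3 and -0.999 with it.

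The difference between these effects, the Q140 effect without Msh3 minus that with Msh3, passed at 0 member peaks (background 0.0226%). For no cholesterol gene peak were the effects thus shown to differ. At an unadjusted p under 0.05 there were 12 member peaks, against 10696 of all 146155 tested peaks (edgeR). With DESeq2, 0 passed, but it gave an adjusted p at only 70051 peaks, and a peak without one could not pass. The smallest p was at the Cyp51 peak 47.4 kb away (0.63 ± 0.20, adjusted p = 0.304, edgeR). At the Scap intron peak the difference was 0.48 ± 0.21 with an interval of 0.06 to 0.89 (adjusted p = 0.584, edgeR), and at the Abca1 start -0.40 ± 0.22 (adjusted p = 0.724, edgeR). Q140_Msh3KO against WT gave 0 member peaks that passed (background 0.525%). At an unadjusted p under 0.05 there were 6, against 14353 of all 146155 tested peaks (edgeR). With DESeq2, 0 passed, with an adjusted p at only 98553 peaks. The Scap intron peak had the smallest p in Q140_Msh3KO against WT (-0.52 ± 0.14, adjusted p = 0.0842, edgeR).

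Among the other sterol and lipid genes, named here because they passed, Vldlr, a receptor for lipoproteins, had the largest change. Of its peaks, 3 passed as higher and 1 as lower, the lower one 12.8 kb before the start (-0.56 ± 0.17, adjusted p = 0.0211, edgeR). The peak 136 kb before the start held 5.22 ± 1.35 CPM in Q140 and 1.49 ± 0.83 CPM in WT animals (1.82 ± 0.26, adjusted p = 9.4e-07, edgeR). In Q140_Msh3KO against Q140, which shares the Q140 libraries, 1 peak of these genes was higher and 1 lower of 239. The lower one was this Vldlr peak (-1.07 ± 0.22, adjusted p = 0.00986, edgeR). The higher one belonged to Stard4, a sterol carrier, and lies 118 kb past the start in an intron of Camk4 (0.81 ± 0.19, adjusted p = 0.0239, edgeR). In Q140 against WT that Stard4 peak was lower (-0.88 ± 0.19, adjusted p = 0.000804, edgeR). Osbp, an oxysterol binding protein, had a lower peak in its exon (-0.89 ± 0.17, adjusted p = 0.000272, edgeR), and Rxra, the receptor that pairs with the oxysterol receptors, a lower peak in its intron (-0.57 ± 0.12, adjusted p = 0.000869, edgeR). Mbtps1, the protease that makes the first cut in SREBP, had a lower intron peak (-0.42 ± 0.12, adjusted p = 0.0203, edgeR).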

How the data were processed

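ATAC-seq counts of 24 libraries were analysed. The authors deposited 1 table of raw counts per peak and library, with each peak's position, nearest gene start and class. The submitters' processing notes name the tools BWA, MACS2, featureCounts, Picard and SAMtools and the build GRCm38; versions, order, cut-site shift, duplicate handling and any pooling for peak calling are not given in those notes or the labels. All libraries share 1 set of peaks. All 24 count columns were mapped by label, and 0 other columns held samples. A symbol was missing for 281 peaks.

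The test was edgeR's (version 4.0.16, R 4.3.3; filterByExpr with a count minimum of 10, TMM scaling, robust quasi-likelihood fit of the 24 libraries on genotype plus sex, Benjamini-Hochberg adjustment over 146155 peaks at 0.05). The sex difference of the Q140 effect came from a fit with genotype by sex terms. SE is the Wald SE scaled by the quasi-dispersion. CPM uses TMM library sizes. DESeq2 1.42.0 was an alternative. Totals per library ran from 4372251 to 11736557 counts, which sets the precision, and the share of reads outside peaks is unknown. No 2 libraries were duplicates (chi-square per peak 1.33 to 8.84 over 60 pairs within genotypes). Animals are the replicates, as the design text gives 6 per genotype.

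Peaks named are, for each gene, its promoter peak of highest mean CPM or else its nearest peak, every member peak that passed in any comparison, and the smallest p where none passed. The members and lists were chosen with earlier results of these data known. Neighbouring peaks are not independent. Motifs were searched on both strands of RefSeq promoter windows of GRCm38.p6.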

Additional observations from a re-analysis of the deposited data

Results flagged for a closer look

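Among the 38 cholesterol gene peaks named, 152 sets of 6 animals (1 peak in 1 genotype) were screened for an animal far from the other 5, and 7 were found, where chance alone gives about 1 in 20. At the Abca1 start, WT male 1 held 3.16 CPM and the other WT animals 4.69 to 5.52 CPM, in the group against which the higher Q140 signal was measured. Q140 female 1 was flagged as far below its genotype at 4 start peaks: 26.8 CPM at Mvd (others 31.8 to 34.8), 28.9 CPM at Fdft1 (others 37.5 to 41.3), 29.8 CPM at Lss (others 35.2 to 38.0) and 14.4 CPM at Scap (others 16.5 to 17.6). Without a flag, Q140 female 1 was also the lowest Q140 animal at further starts, among them Hmgcs1 and Idi1, though not at Nsdhl. The whole library was low at promoters, which held 19.3% of its counts, against 21.1% to 22.3% in the other Q140 libraries. At the start of Abcg1, WT male 2 held 30.2 CPM and the others 39.8 to 45.3 CPM. At the start of Apoe, Q140 male 2 held 7.32 CPM and the others 3.31 to 4.74 CPM.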

How the results depend on the processing

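In Q140 against WT, 13 member peaks passed, and 10 to 16 did under 9 other fits, with every one of the 13 keeping its sign. Over all peaks, those fits gave 4556 to 7488 higher and 7687 to 10420 lower, of 142695 to 147020 tested. Fewer peaks were eligible under 2 narrower rules, which left 4 within 10 kb of the start and 1 of 18 promoter peaks (3.33% of all promoter peaks). The stricter threshold of an adjusted p under 0.01 left 5. Over all peaks, 7003 to 9150 were under 0.01 in the 9 other fits. Of the 13, 9 passed under all 9 fits; the others were Abca1, Sc5d, the higher Cyp51 peak and the second Srebf2 peak, with adjusted p up to 0.128. In Q140_Msh3KO against WT the share of counts in promoters as a covariate gave 1 member peak, the Scap intron peak (adjusted p = 0.049, edgeR), against 0; the cause was not tested. The remaining comparisons kept 0 member peaks. Over all peaks, counts moved by more than 1.5 times in 3 comparisons: from 773 to 383 without Q140_Msh3KO male 1 and 199 without Q140 female 2 too in Q140_Msh3KO against Q140; from 169 to 441 with the promoter share and 37 with 2 groups fitted in Q140_Msh3KO against Msh3KO; and in the difference of the Q140 effects from 33 to 61 by library size, 78 with the promoter share, 12 without Q140 female 2, 8 without Q140_Msh3KO male 1, 9 without both, 99 with DESeq2 and 55 with the replicate block. With the replicate block in place of sex, 16 member peaks passed in Q140 against WT, 3 higher and 13 lower, and 0 elsewhere. Of all 146155 tested peaks, 6233 were higher and 9244 lower in Q140 against WT under that setting. The replicate numbers were not taken as pairing, which the labels do not state. Of 36 same-number pairs, 13 correlated over 0.1 (r from -0.318 to 0.472). Their median r was 0.0595, against -0.0137 in other pairs, and 10 of 24 libraries correlated best with their own number. Whether the numbers mark a shared batch was not tested. Depth limits distal peaks: the lowest tested member peak held a mean of 7.67 counts.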
